A study of Mus musculus with 9 samples.

Results

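The cytosolic ribosomal protein genes were examined across liver macrophages from mice on normal chow (NC), on a high-fat diet (HFD) with vehicle, and on HFD with diphenyleneiodonium (DPI). Members were taken by symbol alone, as rows of the count table named Rps or Rpl with a number, Rpsa or Rplp0 to Rplp2, leaving out the ribosomal S6 kinases. Of the 23413 gene symbols in the table, 86 met this rule. They comprised 31 proteins of the small subunit, 43 of the large subunit, 3 of the stalk, 8 paralogs or near copies and 1 gene, Rps19bp1, that shares the name but encodes a binding partner of Rps19.

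The groups held 2 NC, 3 HFD vehicle and 4 HFD DPI libraries, each titled with a mouse number, in 9 libraries. The study's account of the sort gives more mice per group than there are libraries, so whether a library came from 1 mouse or from a pool is not settled here. All mice were C57BL/6 males put on their diet at 5 weeks of age and kept on it for 8 weeks. From week 3, the HFD mice received PEG3000 vehicle or DPI at 2 mg/kg every 5 days, whereas whether the NC mice were injected is not given in the sources used here. The sample labels instead describe purified cells held with DMSO or DPI at 500 nM for 24 h, so the route of treatment differs between the sources, and the groups were taken from the sample titles. Cells were sorted as F4/80+CD11b+Gr1low and labelled Kupffer cells (KCs). The defining KC markers were nearly absent: 9 markers, among them Clec4f and Timd4, summed to 28.4 to 111.1 CPM (TMM-normalized counts scaled to library size) in NC, 2.97 to 26.2 in HFD vehicle and 7.65 to 77.1 in DPI, whereas 8 general macrophage markers summed to 1064 to 1810 CPM in every library. Over the libraries, 6 monocyte markers summed to 3350 to 7113 CPM and 12 neutrophil markers to 1056 to 5909 CPM. The cells are called liver macrophages here, after the sort, and the name does not mean that other cells were absent. In these bulk libraries fewer cells of a type and less RNA per cell cannot be told apart.

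Ribosomal proteins assemble with ribosomal RNA into the small subunit, which reads the messenger, and the large subunit, which joins amino acids. Each protein is needed in 1 copy per ribosome except for the stalk proteins, and most of the genes are among the most abundant messengers of any cell. Their messengers typically start with a C followed by a run of pyrimidines, the terminal oligopyrimidine (TOP) tract, through which mTORC1 adjusts their translation. In macrophages, the demand for ribosomes changes with growth and activation.

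To show the pyrimidine runs near the starts of members on which the results turn, 9 start regions are printed. For each, 30 bases of RefSeq sequence (GRCm38.p6) were centred on the longest unbroken run of C or T that lies within or reaches into 25 bases on either side of the annotated start. The capitals mark that run. The windows of Rps27 (chr3:90213632-90213661) and Rps6 (chr4:86857349-86857378) are on the minus strand, as are those of Rpl13a (chr7:45128722-45128751) and Rpl7l1 (chr17:46782664-46782693). Those of Rpl12 (chr2:32961701-32961730), Rps23 (chr13:90923135-90923164) and Rpl4 (chr9:64173361-64173390) are on the plus strand, as are those of Rpl26 (chr11:68901579-68901608) and Rpl38 (chr11:114668568-114668597).
Rps27: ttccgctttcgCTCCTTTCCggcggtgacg
Rpl12: gagcaggatccgTCTTTTCggctttcggct
Rps23: tgccttgtgggTCCTTCCTgcacctcctct
Rpl4: gtgacaagTCTTTCCTTTTCCTgtgggagc
Rpl26: gcgtgtagTTCTCTTTCCTTTTgcggccat
Rpl13a: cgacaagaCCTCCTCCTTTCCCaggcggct
Rps6: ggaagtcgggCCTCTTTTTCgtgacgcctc
Rpl38: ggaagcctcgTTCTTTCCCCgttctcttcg
Rpl7l1: gcgggcctctctaCCCCgcccggtgaggct

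Counted from the annotated start, the run began at base -2 in Rps27 and Rpl38, -1 in Rps6, 2 in Rpl12 and 3 in Rpl13a. It began away from the start in Rpl4 (-18), Rpl7l1 (-24), Rpl26 (22) and Rps23 (25), so in these the marked run is not a TOP tract at the annotated start. The run was 14 bases in Rpl4, Rpl26 and Rpl13a, 10 in Rps6 and Rpl38, 9 in Rps27, 8 in Rps23, 7 in Rpl12 and 4 in Rpl7l1, the paralog in the set. Of the members, 65 matched a RefSeq entry, with 77 annotated starts. A run of at least 8 bases was found near 41 of these starts (53.2%), compared with 24.1% of all 32851 starts in the table, and the median run was 9 bases against 5. In the 300 bases around each start, read on both strands, the sequence TCTCGCGA occurred in 15.6% of member promoters and 0.995% of all, and CCGGAAG in 35.1% and 8.86%. GGGCGG occurred in 61.0% against 35.7%, and TATAAA in 9.09% against 13.6%. These are matches of letters in the reference and were not tested.

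The ribosomal protein genes took up a large part of every library. Their summed share of counts, leaving out the 45S precursor ribosomal RNA gene Rn45s, was 12.2% and 14.8% in the NC libraries, 15.1%, 17.1% and 15.9% in HFD vehicle, and 15.3%, 19.7%, 18.2% and 15.3% in DPI. Both NC libraries lay below every HFD library, whereas the vehicle and DPI libraries overlapped. The group means were 13.5% ± 1.85 (SD, n = 2), 16.0% ± 1.02 (n = 3) and 17.1% ± 2.19 (n = 4). Rn45s itself held 27.0% to 44.5% of all counts, and with it kept in the total the NC and vehicle libraries overlapped, at 7.97% and 10.2% against 8.80% to 12.5%. Library totals were 3534325 to 15585775 counts. The p-values below measure the spread between these libraries.

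**Figure D1:**
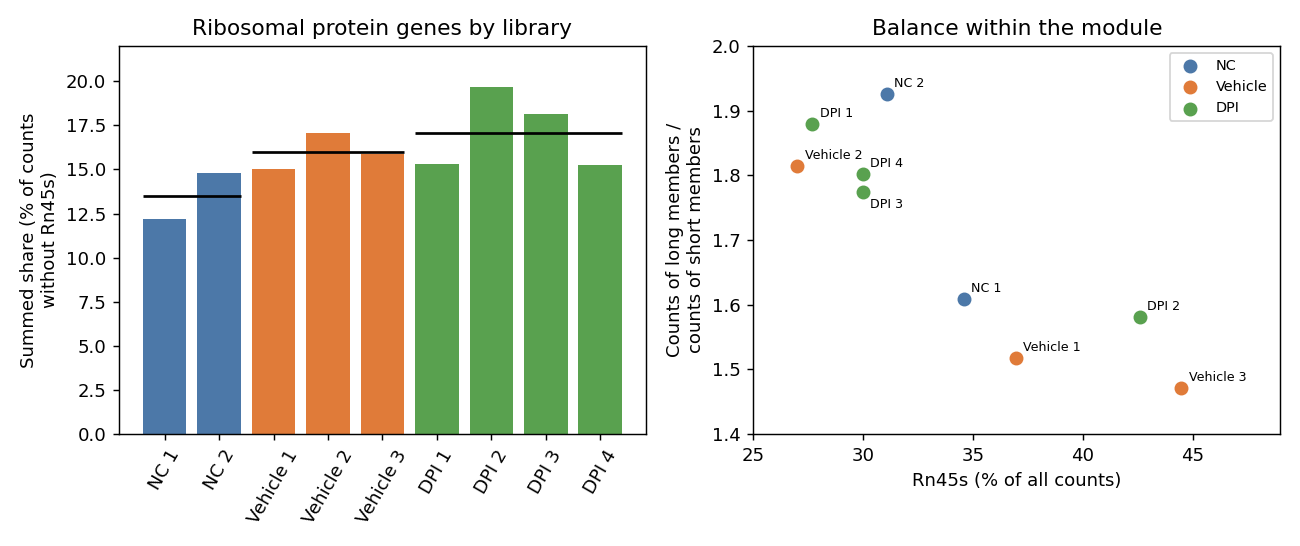
Left, summed share of the 86 ribosomal protein genes in each library, in percent of counts without Rn45s, with a black line at each group mean. Right, counts of the longer members divided by counts of the shorter members against the Rn45s share of each library. The NC bars, 12.2% and 14.8%, are below all HFD bars, and the ratio on the right splits each group, with 4 libraries between 1.47 and 1.61 and 5 between 1.77 and 1.93.

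Per kilobase of transcript and averaged over the libraries, among the highest levels were those of Rps27 and Rps29, small zinc-binding proteins of the small subunit, at 5090 and 4856 CPM per kilobase. Rpl41, which encodes the shortest of the proteins, had 3959 and Rpl10, which completes the large subunit late in its assembly, 3066. Rps27 ranged from 2636 to 6668 and Rps29 from 3283 to 7235 CPM per kilobase over the libraries, so the order of these neighbours did not exceed their spread. The lowest levels of tested members were mostly those of paralogs. Rpl3l, the striated muscle copy of Rpl3, had 1.31 CPM per kilobase, Rps19bp1 21.7, Rpl7l1 35.8 and Rps27l 70.3.

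Rpl34, at 83.0 CPM per kilobase, was the lowest of the canonical members. It had 2097 counts over all libraries, compared with 34278 for the row named Rpl34-ps1, a processed copy, so the reads of the pair may have been divided by the counting and the level of Rpl34 is uncertain. The same holds in part for Rps15a, with 30326 counts beside 21500 for Rps15a-ps6 and 8307 for Rps15a-ps4, and for Rpl31, with 34242 beside 18975 for Rpl31-ps12. Rpl39l and Rpl10l, copies best known from the testis, had 0 to 8 and 0 to 10 counts and did not pass the filter on low counts. The remaining 84 members were tested along with 11393 genes in all.

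The first comparison asked how the HFD changed these genes, with HFD vehicle set against NC. The ribosomal protein genes were mostly higher in HFD vehicle, by a small amount. Of 84 tested members, 81 (96.4%) had a positive log2 fold change, against 51.5% of all genes tested, and the median was 0.44 on the log2 scale against 0.03 for all genes and 0.23 for 354 other genes with a mean of at least 200 CPM. Every one of the 77 canonical members was positive, from 0.06 to 1.00, except that with library size alone 62 of 77 were, against 38.9% of all genes. Leaving out NC 1 gave 70 of 77, Vehicle 2 gave 75, and NC 2 or Vehicle 3 gave 76 each. The symbols with a negative value were Rpl7l1, Rpl3l and Rps19bp1, none of them a canonical ribosomal protein. None of the members passed the 2-fold threshold with an unadjusted p under 0.05 by edgeR, which 7.03% of all genes passed upward and 4.63% downward.

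At an unadjusted p under 0.05 alone, 20 members (23.8%) were higher in HFD vehicle, against 7.76% of all genes, and 0 were lower, against 5.22%. Of the 354 other genes with a mean of at least 200 CPM, 56 were higher and 6 lower at this p. After Benjamini-Hochberg adjustment over all genes, edgeR's quasi-likelihood test called 0 members and 0.0614% of all genes, and the smallest adjusted p of a member was 0.221. DESeq2 called 0 members and 395 genes in all. In 54 members (64.3%) every vehicle library was above both NC libraries, which was so for 15% of all genes. The reverse held for 1 member, Rpl3l, and for 12.5% of all genes. Without NC 1, 1 member (1.19%) was higher at p under 0.05, below the 8.16% of all genes in that fit, and without NC 2, 25 were (29.8%, against 14.8%). Either fit leaves NC with a single library, which is assumed to vary like the libraries of the other groups. Leaving out Vehicle 2 gave 9 members (10.7%, against 7.31% of all genes), Vehicle 3 gave 11 (13.1%, against 6.46%) and DPI 3 gave 11 (13.1%, against 6.94%). With RLE size factors 12 members were higher (14.3%, against 7.31% of all genes). With library size alone 2 were higher (2.38%), below the 4.91% of all genes, and the median of the members was 0.16 and that of all genes -0.26.

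**Figure D2:**
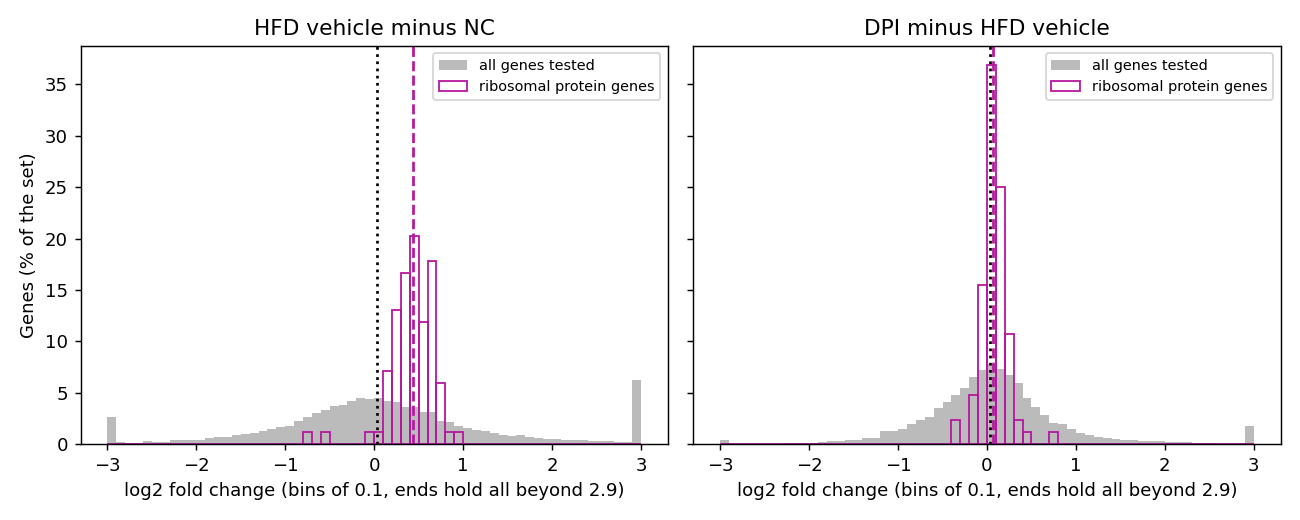
Distribution of log2 fold changes in bins of 0.1, as a percent of the 11393 genes tested (grey) and of the 84 ribosomal protein genes tested (outlined), for HFD vehicle minus NC (left) and DPI minus HFD vehicle (right). The dotted line marks the median of all genes and the dashed line that of the members, 0.03 and 0.44 on the left and 0.04 and 0.07 on the right.

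In the small subunit, 31 of 31 members were positive, with a median of 0.48, and 11 had an unadjusted p under 0.05. Of all genes, 51.5% were positive and 7.76% were higher at this p. Rps27, at chr3:90212522-90213651, had the smallest p. It measured 909 and 1228 CPM in NC, 1739, 2300 and 1926 in HFD vehicle, and 1510, 2116, 2059 and 2013 in DPI. Both NC libraries were below all HFD libraries, and the log2 fold change of HFD vehicle over NC was 0.90 ± 0.26 (SE), with an adjusted p of 0.221 by edgeR.

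Rps23, which lies at the decoding centre, was almost constant in NC at 913 and 995 CPM and reached 1386, 1790 and 1589 CPM in HFD vehicle and 1476, 1830, 1727 and 1474 in DPI. The groups on either diet did not overlap, and the log2 fold change was 0.74 ± 0.24 (adjusted p = 0.268 by edgeR). Rps14, whose human counterpart is lost in a form of myelodysplasia, measured 1047 and 1236 CPM in NC, 1762, 1865 and 1749 in HFD vehicle and 1446, 2023, 1737 and 1451 in DPI, a log2 fold change of 0.65 ± 0.25 (adjusted p = 0.314 by edgeR). Its NC libraries again were the lowest of all.

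In the large subunit, 43 of 43 members were positive, with a median of 0.43, and 8 had an unadjusted p under 0.05. Of all genes, 51.5% were positive and 7.76% were higher at this p. With library size alone, 62 of the 77 canonical members of both subunits and the stalk were positive. Rpl12, which sits at the base of the stalk, had the largest change of any member. It measured 422 and 643 CPM in NC, 975, 1161 and 1054 in HFD vehicle, and 701, 1360, 1119 and 892 in DPI. The log2 fold change of 1.00 ± 0.32 (adjusted p = 0.255 by edgeR) fell just short of the 2-fold threshold. Rpl32 measured 739 and 851 CPM in NC, 1241, 1363 and 1260 in HFD vehicle, and 1136, 1639, 1462 and 1197 in DPI, with a log2 fold change of 0.70 ± 0.25 (adjusted p = 0.298 by edgeR). In both genes the NC libraries lay below all others. Without NC 1, the unadjusted p of Rps27, Rpl12, Rps23, Rpl32 and Rps14 lay between 0.0618 and 0.131, and their log2 fold changes between 0.55 and 0.74. With library size alone, the unadjusted p by edgeR was 0.0993 for Rps23 (log2 fold change 0.44), 0.132 for Rpl32 (0.41) and 0.162 for Rps14 (0.36).

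The 3 genes of the stalk, which recruits the translation factors that hydrolyse GTP, all had positive values. Rplp2 measured 711 and 739 CPM in NC and 1047, 1184 and 1266 in HFD vehicle (log2 fold change 0.69 ± 0.30, unadjusted p = 0.0391 by edgeR). By edgeR, Rplp2 had 0.65 with RLE size factors (unadjusted p = 0.0527) and 0.39 with library size alone (unadjusted p = 0.175). Without Vehicle 2, Vehicle 3 or DPI 3 it had 0.67 to 0.68, with an unadjusted p of 0.0551 to 0.0761 by edgeR. Without NC 1 and without NC 2 the log2 fold changes of Rplp2 were 0.67 and 0.74. Rplp1 had a log2 fold change of 0.57 ± 0.27, with vehicle libraries all above NC. Rplp0 was more variable, at 2060 and 3767 CPM in NC and 3217, 5023 and 3714 in HFD vehicle, so that the groups overlapped. Its log2 fold change was 0.45 ± 0.32 (unadjusted p = 0.184 by edgeR), and 0.52 with the replicate number as a block (unadjusted p = 0.0233 by edgeR). The change of Rplp0 ranged from 0.09 to 0.98 with each library left out, the highest without NC 2.

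All 7 named members with a known task outside the ribosome had positive values. Rpl11, which together with Rpl5 and the 5S RNA restrains the p53 ligase Mdm2, was higher in every vehicle library than in NC (log2 fold change 0.68 ± 0.27, unadjusted p = 0.0238 by edgeR). For Rpl11 the unadjusted p by edgeR was 0.17 with library size alone (log2 fold change 0.39), 0.206 without NC 1 (0.46) and 0.065 without Vehicle 2 (0.55). Rpl5 was 1411 and 2773 CPM in NC and 2088, 3050 and 2495 in vehicle, which overlapped, with a log2 fold change of 0.28 ± 0.30 that became -0.11 without NC 1 and 0.88 without NC 2 (unadjusted p = 0.0241 by edgeR). Rpl13a, which in myeloid cells exposed to interferon gamma leaves the ribosome to block selected messengers, showed 0.32 ± 0.33, with -0.09 without NC 1 and 0.95 without NC 2 (unadjusted p = 0.0289 by edgeR). The log2 fold changes were 0.48 ± 0.30 for Rps6, the substrate of the S6 kinases, and 0.44 ± 0.27 for Rps19, which is mutated in Diamond-Blackfan anaemia. They were 0.29 ± 0.28 for Rpsa, also known as a laminin receptor, and 0.19 ± 0.23 for Rps27a, made as a fusion with ubiquitin, which turned to -0.089 with library size alone. None of these 4 had an unadjusted p under 0.05. With each library left out, they ranged from 0.10 to 1.05 for Rps6, the highest without NC 2 (unadjusted p = 0.0115 by edgeR), from 0.26 to 0.68 for Rps19, from 0.026 to 0.66 for Rpsa and from 0.038 to 0.41 for Rps27a.

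Of 6 paralogs tested, 4 were positive, with a median of 0.27, and 0 had an unadjusted p under 0.05 by edgeR. Of all genes, 51.5% were positive, and at this p 7.76% were higher and 5.22% lower. Rpl22l1, a relative of Rpl22, measured 97.6 and 102.3 CPM in NC and 114.3, 188.3 and 131.3 in HFD vehicle, a log2 fold change of 0.53 ± 0.34. For Rpl36al it was 0.36 ± 0.26, and in both genes the vehicle libraries were all higher than NC. Rps27l had 0.18 ± 0.39, or -0.10 with library size alone, and Rps4y2 0.37 ± 0.40, the latter a row that RefSeq lists as a transcribed pseudogene under the symbol Rps4l and whose reads may be shared with Rps4x. Rps19bp1 was close to 0 (-0.04 ± 0.60). Rpl7l1 was 106.0 and 80.3 CPM in NC and 54.2, 101.9 and 40.9 in HFD vehicle, which overlapped (-0.50 ± 0.37). Without Vehicle 2 the value of Rpl7l1 was -0.97 (unadjusted p = 0.0134 by edgeR), the one member lower at p under 0.05 in that fit. Rpl3l had under 3 CPM in every library.

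**Figure D3:**
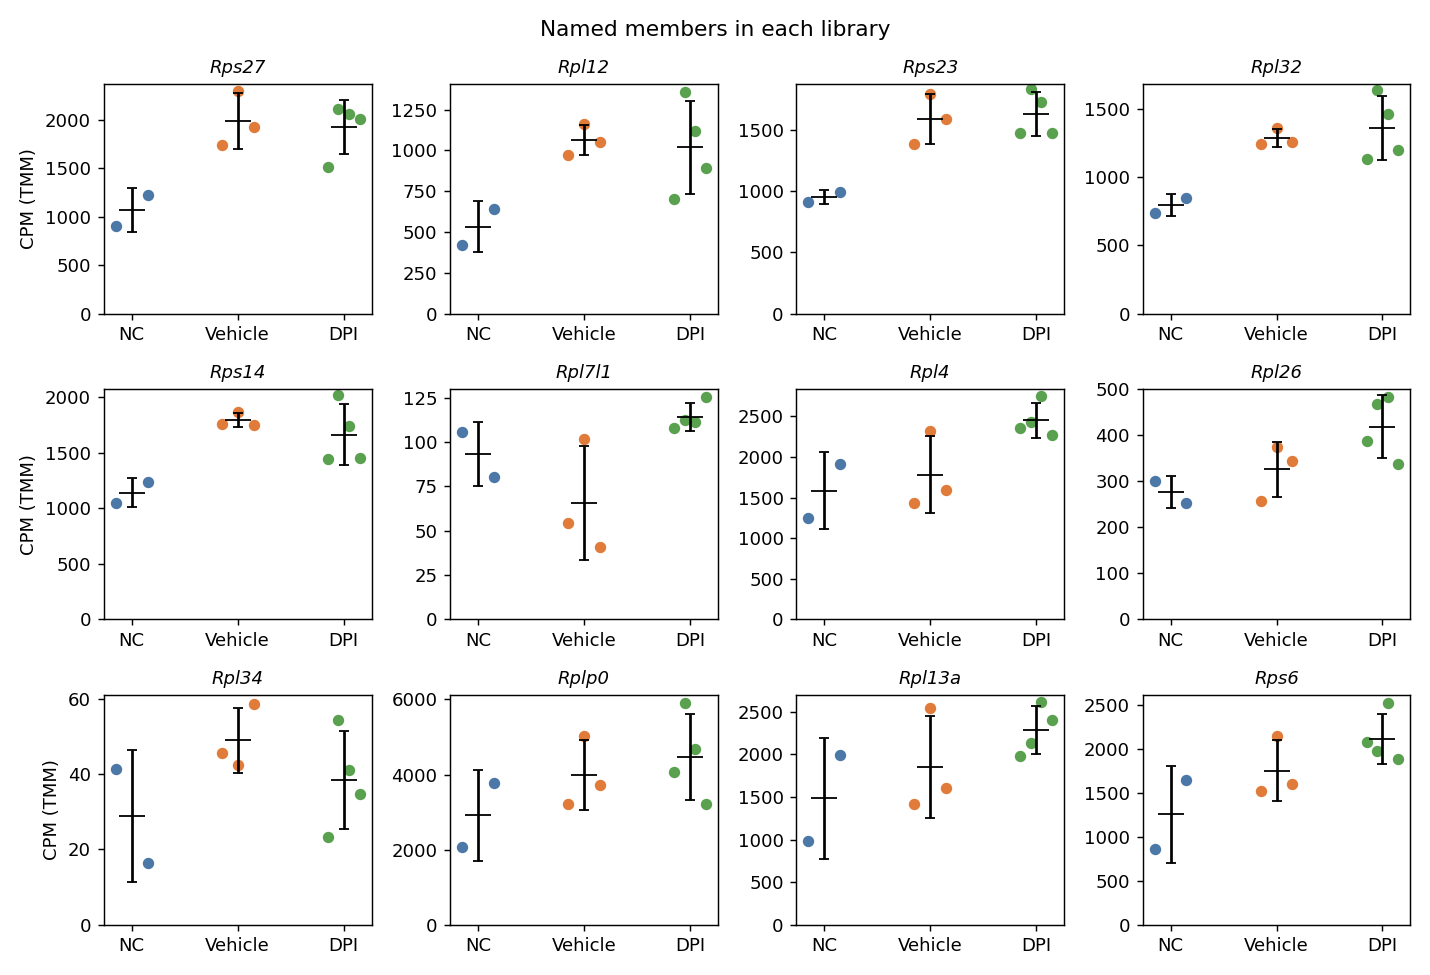
TMM-normalized CPM of 12 members in each library by group, with the group mean (dash) and SD (bars), each panel on its own scale from 0. For Rps27, Rpl12, Rps23, Rpl32 and Rps14 both NC points lie below all HFD points, and for Rpl7l1 all 4 DPI points, 107.8 to 125.4 CPM, lie above the 3 vehicle points, 40.9 to 101.9.

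Markers of other cells also differed between NC and HFD vehicle. The 7 dendritic cell markers summed to 55.2 and 107.9 CPM in NC and to 193.1 to 310.1 in HFD vehicle, and the 9 sinusoidal endothelial markers to 217.1 to 337.3 in NC and 19.8 to 30.7 in HFD vehicle, none of them at 0 in all libraries. The 6 monocyte markers summed to 3670 and 3743 CPM in NC and to 3995 to 4712 in HFD vehicle, also without overlap. The 8 B cell markers summed to 15.7 to 161.5 CPM in NC and 155.2 to 361.3 in vehicle, which overlapped. Neutrophil markers, 12 genes, summed to 1670 to 3663 CPM in NC and 2680 to 4158 in vehicle, and 11 hepatocyte markers to 1358 to 1631 and 882.7 to 1305. The 7 eosinophil markers summed to 73.58 and 102.9 CPM in NC and to 58.98 to 73.47 in vehicle, without overlap though nearly touching. The 6 erythroid markers summed to 3455 CPM in NC 1 and 508.7 in NC 2, and to 350.5, 2180 and 103.8 in vehicle, so they were high in NC 1 and Vehicle 2. The DPI libraries also differed among themselves. From DPI 1 to DPI 4, neutrophil markers summed to 1249, 1056, 4213 and 5909 CPM, and endothelial markers to 254.2, 121.6, 10.8 and 43.3. B cell markers summed to 110.9 to 493.6 CPM in DPI. The part of these cell types in the differences of the ribosomal protein genes was not tested.

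The second comparison asked how DPI changed these genes in HFD-fed mice, with DPI set against vehicle. The differences of the ribosomal protein genes were small. Of 84 members, 65 (77.4%) had a positive log2 fold change, against 53.1% of all genes, but 38 did without Vehicle 1 and 37 without DPI 2. The median was 0.07, compared with 0.04 for all genes and 0.01 for the 354 abundant genes. None passed the 2-fold threshold at an unadjusted p under 0.05 by edgeR, against 1.5% of all genes upward and 1.34% downward, and none was called after Benjamini-Hochberg adjustment by edgeR or DESeq2, where edgeR called 0% of all genes and DESeq2 2 genes. With an unadjusted p under 0.05, 1 member was higher (1.19%, against 1.96% of all genes) and 0 were lower (against 2.17%). The DPI libraries were all above the vehicle libraries in 1 tested member, against 3.38% of all genes, and all below in 0, against 2.48%. In this fit the shares of members at an unadjusted p under 0.05 or not overlapping were below those of all genes, but without Vehicle 2, 3 members (3.57%) were higher at p under 0.05, above the 2.48% of all genes.

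The member called was Rpl7l1, a homolog of Rpl7 that acts in assembly of the large subunit rather than in the mature ribosome. It measured 54.2, 101.9 and 40.9 CPM in HFD vehicle and 107.8, 112.4, 111.3 and 125.4 CPM in DPI. All DPI libraries were higher, although Vehicle 2 came close to them, and the log2 fold change was 0.80 ± 0.32 (unadjusted p = 0.0274, adjusted p = 0.999 by edgeR). Leaving out Vehicle 1, Vehicle 3 or DPI 4 took the unadjusted p to 0.11, 0.143 and 0.0508. With each library left out the log2 fold change of Rpl7l1 ranged from 0.54 to 1.26, the highest without Vehicle 2, where it passed the 2-fold threshold.

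The next members by p were of the large subunit, except Rps6. Rpl4 measured 1434, 2319 and 1595 CPM in vehicle and 2354, 2427, 2754 and 2270 in DPI, with DPI 4 just below Vehicle 2 (log2 fold change 0.46 ± 0.23, unadjusted p = 0.0695 by edgeR). Without Vehicle 2, Rpl4 had 0.69 (unadjusted p = 0.0125 by edgeR). Rpl26, which helps p53 messengers to be translated, showed 0.36 ± 0.24, Rpl13a 0.30 ± 0.28 and Rps6 0.27 ± 0.25, and in each the DPI and vehicle libraries overlapped. On the negative side stood Rpl34 (-0.36 ± 0.39), Rpl38, a protein needed for translation of Hox messengers (-0.13 ± 0.22), Rps14 (-0.11 ± 0.20), Rpl36 (-0.12 ± 0.24) and Rpl27 (-0.10 ± 0.23), all overlapping. For the stalk, Rplp0 had 0.16 ± 0.27, Rplp1 0.00 ± 0.22 and Rplp2 -0.09 ± 0.25. Rps27, the member with the smallest p under the diet, had -0.05 ± 0.21 under DPI, and the DPI libraries of that gene stayed above NC.

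By class, 25 of 31 small subunit members, 33 of 43 large subunit members and 2 of 3 stalk members were positive under DPI. Their medians were 0.07, 0.07 and 0.00, and 53.1% of all genes were positive. Of the 77 canonical members 60 were positive, but 36 were without Vehicle 1 and 33 without DPI 2. The ratio of small subunit to large subunit and stalk counts was narrow throughout, between 0.714 and 0.758 in the libraries.

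The members followed each other closely over the libraries, with exceptions, and those of short and of long coding sequence differed. Each canonical member was compared with the mean of the other canonical members over the libraries, which share their scaling and depth. Pearson's r had a median of 0.909 and was above 0.8 in 62 of 77 members. It was as low as 0.162, and the member that strayed furthest from the module was Rpl30, with 76.9 and 15.5 CPM in NC, 48.6, 17.2 and 106.3 in HFD vehicle, and 36.6, 166.1, 48.8 and 26.5 in DPI. The groups of Rpl30 overlapped throughout. The same r was not computed for other genes, so whether the closeness is particular to these members is not shown.

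To describe the length feature, which was noticed in the data, the 77 canonical members were divided at their median coding length of 456 bp, giving 38 longer and 39 shorter genes from 75 bp (Rpl41) to 1257 bp (Rpl4). The counts of the longer members divided by those of the shorter ones were 1.61 and 1.93 in NC, 1.52, 1.81 and 1.47 in HFD vehicle, and 1.88, 1.58, 1.77 and 1.80 in DPI. The low values, 1.47 to 1.61, fell in NC 1, Vehicle 1, Vehicle 3 and DPI 2, so every group held both kinds of library. In those 4 libraries Rn45s took 34.6% to 44.5% of all counts, and in the other 5 libraries 27.0% to 31.1%. Whether the Rn45s share has a part in this split was not tested.

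**Figure D4:**
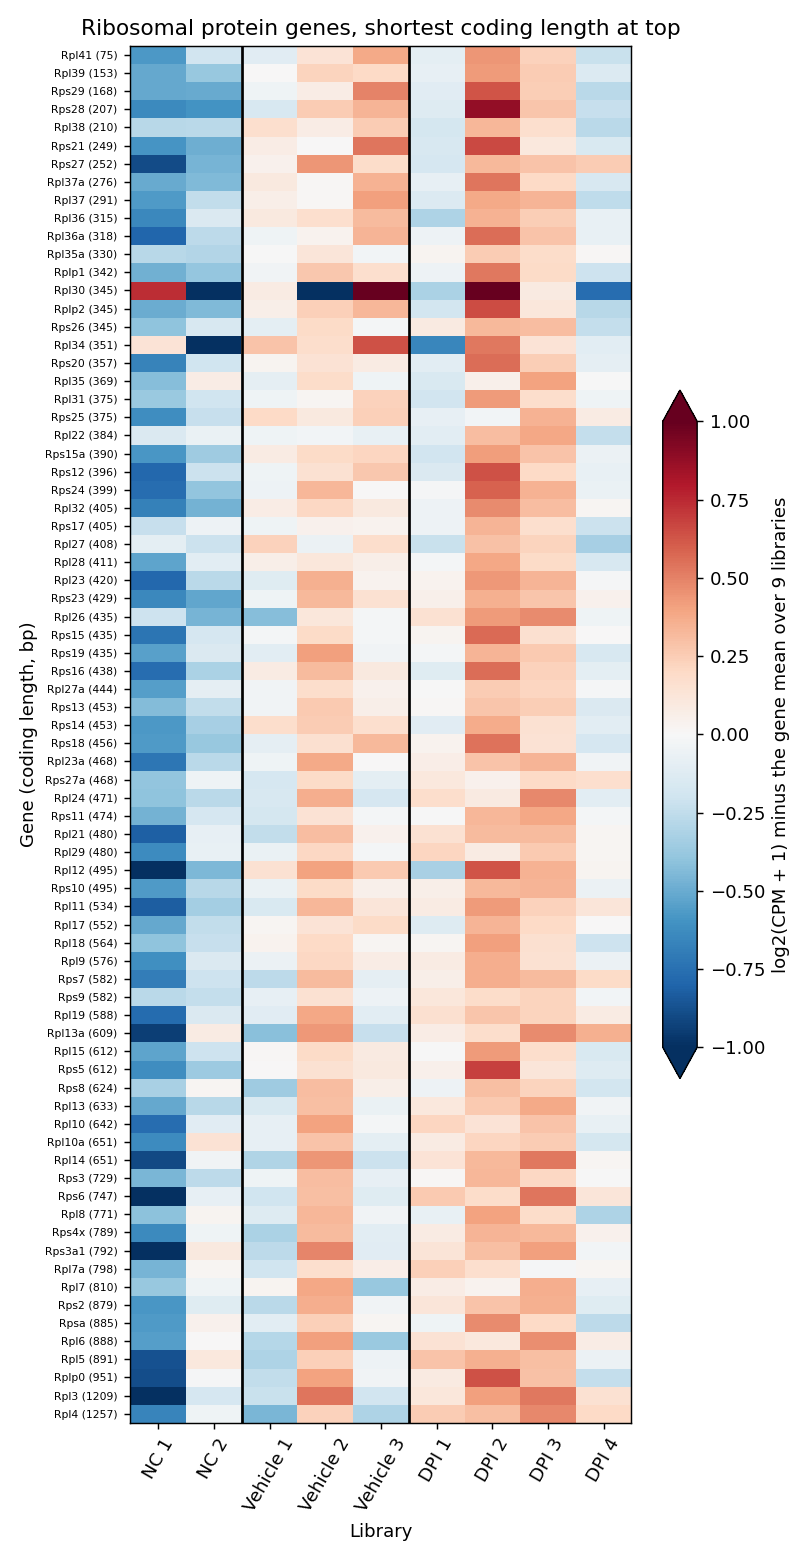
The canonical ribosomal protein genes, 1 of the 77 not shown (rows, coding length in bp in parentheses, shortest at the top) in each library (columns, groups separated by lines), coloured by log2(CPM + 1) minus the mean of the gene over the 9 libraries, with the scale ending at -1 and 1. NC 1 is low in nearly all rows, the short genes are high in Vehicle 3 and DPI 2, and the long genes are high in Vehicle 2 and DPI 3.

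The vehicle group held 2 of these 4 libraries among its 3, DPI 1 among its 4 and NC 1 among its 2, and the fold changes of the members varied with coding length. In DPI against vehicle, Spearman's rho between coding length and log2 fold change over the 77 members was 0.526. The medians were 0.12 for the longer and 0.02 for the shorter genes, with 36 of 38 and 24 of 39 positive, against 53.1% of all genes. In HFD vehicle against NC rho was -0.421, with medians of 0.42 for the longer and 0.57 for the shorter genes, and of the 20 members with an unadjusted p under 0.05, 4 were longer and 16 shorter. The genes share the libraries, and the comparisons share the vehicle libraries, so these are descriptions.

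**Figure D5:**
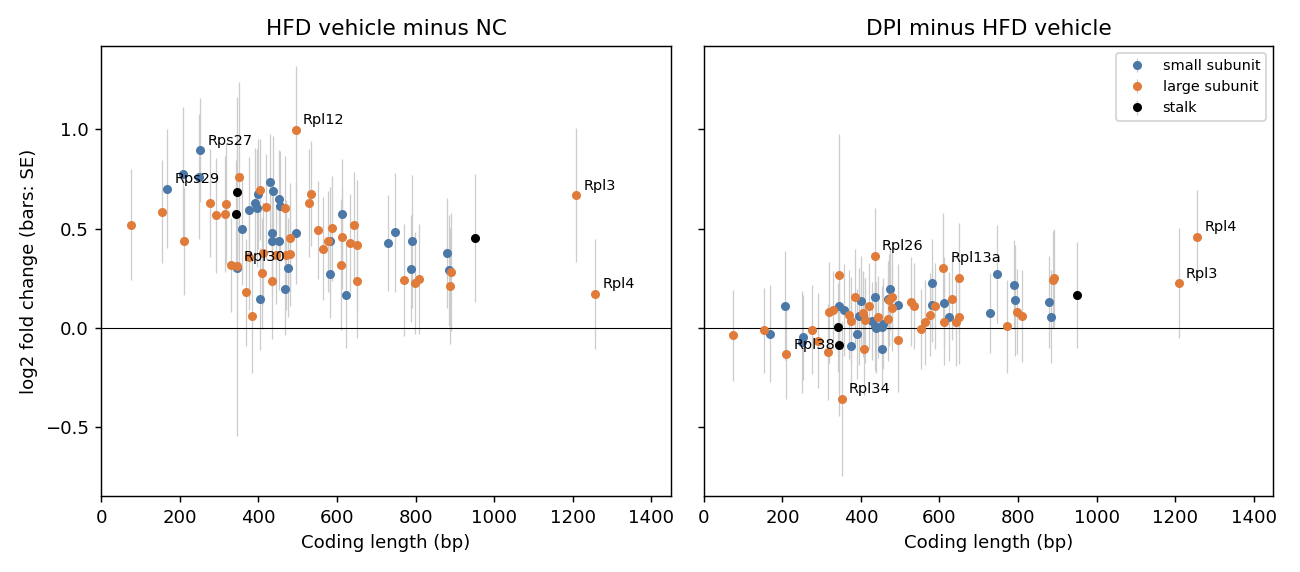
Log2 fold change with its SE against coding length in bp for the 77 canonical members, coloured by subunit, for HFD vehicle minus NC (left) and DPI minus HFD vehicle (right). On the left all points are above 0, though with library size alone 62 of the 77 are, and the shorter genes are higher (rho = -0.421), and on the right the points are close to 0 and the longer genes are higher (rho = 0.526).

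The differences of mean log2(CPM + 1) were also computed within libraries below and above an Rn45s share of 33%, a limit chosen after seeing the data, as a description with no test. For HFD vehicle against NC, among libraries with the lower share, 1 per group, 83 of 84 members were positive, with a median of 0.41 (all genes 0.01), and among those with the higher share, 2 against 1, 78 of 84 were positive, with a median of 0.58 (all genes 0.13). For DPI against vehicle, with the lower share, 3 DPI libraries against Vehicle 2, 8 of 84 members were positive and the median was -0.16 (all genes -0.01). With the higher share, DPI 2 against 2 vehicle libraries, 82 of 84 were positive and the median was 0.38 (all genes 0.02). Of all genes, 49.3% to 53.9% were positive in these sets. The difference between the sets was not tested, as each rests on a single library in at least 1 of its groups.

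Other genes of the ribosome and its supply were read from lists. Of the ribosomal components named outside the rule, Fau, which encodes Rps30, was higher in HFD vehicle than in NC at an unadjusted p under 0.05 by edgeR (log2 fold change 0.51 ± 0.23), and the scaffold protein Gnb2l1 had 0.24 ± 0.31. With DPI these genes had 0.07 and 0.01, and neither had an unadjusted p under 0.05. At the same p, among 20 translation factors and other TOP messengers, 0 were higher and 1 was lower in HFD vehicle, where 7.76% of all genes were higher and 5.22% lower. This was Eif4b, which assists the helicase of the initiation complex (-1.22 ± 0.40). The median of this list was 0.20. With DPI, 2 of the 20 were higher, the initiation subunit Eif3l (0.68 ± 0.28) and the elongation factor Eef2 (0.51 ± 0.22), against 1.96% of all genes. The log2 fold change was positive in 19 of the 20, against 53.1% of all genes, and the median was 0.22.

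Of 53 ribosome biogenesis genes, 4 were higher in HFD vehicle, against 7.76% of all genes, and 0 lower, against 5.22%, with a median of 0.20, and those with the smallest p were Taf1b, a subunit of the factor that places RNA polymerase I (2.84 ± 0.78), Nol6 (2.64 ± 0.82) and Mphosph10 (2.31 ± 0.81), both of the small subunit processome. Levels of these 3 genes in NC were low, at 1.09 and 2.05 CPM for Taf1b, 1.64 and 7.84 for Nol6, and 2.0 and 4.3 for Mphosph10. With DPI, 0 of the 53 had an unadjusted p under 0.05, 40 were positive, against 53.1% of all genes, and the median was 0.24. Of 16 genes of mTORC1 and TOP control, 2 were higher in HFD vehicle, against 7.76% of all genes, namely Mtor (1.82 ± 0.75) and the transcription factor Myc (1.52 ± 0.67), and 1 was lower, against 5.22%, namely the mTOR partner Mlst8 (-2.28 ± 0.87), with a median of 0.11. Levels were low here too. Mtor had 10.2 and 1.68 CPM in NC and Myc 8.56 and 17.7, and Mlst8 had 0.74 CPM in Vehicle 3, near the floor of 3 counts. These large fold changes therefore rest on few counts. With DPI none of the 16 had an unadjusted p under 0.05 and the median was -0.18. No gene of these lists was called after Benjamini-Hochberg adjustment by edgeR in either comparison.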

How the data were processed

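RNA of sorted liver macrophages was measured in 9 libraries. The authors aligned the reads to mm10 and deposited raw whole-number counts per gene. The paper names bowtie2 and RSEM for the counts, and the submitters' processing notes name TopHat2 and edgeR, so the counting step is not settled. Every column belonged to a mapped library, and 0 columns were left out. Library totals were 3534325 to 15585775 counts, with a floor of 3 counts, and intervals were not used.

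Counts were tested with edgeR 4.0.16 (R 4.3.3) by glmQLFit over the 3 groups, after filterByExpr and TMM, with Benjamini-Hochberg adjustment over 11393 genes. A gene passed the threshold used in the study when p was below 0.05 before adjustment and the change at least 2-fold. DESeq2 1.42.0 was an alternative. Values per library are TMM-normalized CPM. Coding and transcript lengths and gene positions came from GENCODE M21 (GRCm38), with the RefSeq-linked transcript of longest coding sequence, and start sequences from RefSeq. Python 3.11.15, numpy 2.4.6, pandas 2.3.3 and matplotlib 3.10.9 were used. The fit was tested on simulated data.

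Genes were named as the 5 members with the smallest p in each direction of each comparison, the 5 highest and lowest per kilobase, the stalk, 7 members of separate role, the paralogs, and at most 3 genes of each list, leaving out results that are not reported here. Rpl30, Rpl3, Rps4x, Rps15a and Rpl31 were named after their values were seen. The members and lists were chosen with earlier results of these data known. The alternatives were RLE factors, library size alone, no filter or at least 10 counts in every library, DESeq2, the replicate number as a block, fits of 2 groups, Rn45s removed, thinned counts, pseudogene counts added and each library left out. The counts at an unadjusted p under 0.05 and the split by Rn45s share, at 33% of counts, were added after seeing the data.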

Additional observations from a re-analysis of the deposited data

Results flagged for a closer look

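Rps27 was marked because 1 of its 4 DPI libraries stood apart. It measured 1510 CPM in DPI 1 and at least 2013 CPM in the other 3 DPI libraries, and the gap divided by the range was just past Dixon's critical value for 4 samples. Of 33 values tested in this way in the DPI group, 1 was marked, and chance marks about 1 in 20 groups.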

How the results depend on the processing

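For HFD vehicle against NC, 20 members were higher at an unadjusted p under 0.05. This was 12 with RLE size factors, 2 with library size alone and 1 (without NC 1) to 25 with each library left out, where all genes gave 833, 559 and 1013 (without NC 1), against 884 in the reported fit, and the count of lower members was then 0 to 1. The median of the members, 0.44, was 0.16 with library size alone and 0.31 to 0.69 with each library left out, and less the median of all genes it stayed positive in all 19 alternatives, from 0.17 without NC 1 to 0.52 without Vehicle 1. At the 2-fold threshold 1 member, Rpl12, was called with no filter, with at least 10 counts in every library, with the replicate block and with Rn45s removed, of 954, 381, 610 and 840 genes, and 0 to 5 members with each library left out, the 5 without NC 2, where 1793 of 12334 genes passed. Fits without NC 1 or NC 2 hold a single NC library, assumed to vary like the other groups. The share of counts differed by 2.51 percentage points, and by 1.19 to 3.82 with each library left out. For DPI against vehicle, the median of 0.07 was -0.02 to 0.16 with each library left out, -0.16 within libraries of lower and 0.38 within libraries of higher Rn45s share. At an unadjusted p under 0.05, 0 to 3 members were higher with each library left out, the 3 without Vehicle 2, where 278 of 11219 genes were, and at the 2-fold threshold 0 to 1, the 1 without Vehicle 2, of 214 genes. The share differed by 1.10 points, and by 0.24 to 1.71 with each library left out. Removing Rn45s gave no separate share, as the share leaves it out. The cause of these shifts was not tested.

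Deviations from the group means had correlations of -0.029 to 0.099 between libraries with the same number and -0.099 to 0.065 between others. With 2 NC libraries, the deviations of NC 1 mirror those of NC 2. These values therefore do not decide whether the numbers pair the libraries. With the replicate block 27 members were higher in HFD vehicle and 2 in DPI at an unadjusted p under 0.05, of 700 and 212 genes in all, which in DPI is 2.38% of members against 1.86% of all genes. In DPI the block gave Rpl4 a log2 fold change of 0.53 (unadjusted p = 0.0266 by edgeR). Under the block, log2 fold changes in DPI turned to 0.088 for Rps29 and 0.059 for Rpl41.

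Among single genes, signs turned in HFD vehicle for Rps27l (-0.10) and Rps27a (-0.089) with library size alone and for Rps19bp1 (0.085) with thinned counts. In DPI they turned with library size alone for Rpl36al (0.020), Rps27 (0.017), Rps29 (0.036) and Rpl41 (0.033), with fits of 2 groups for Rps4y2 (-0.0012), Rplp1 (-0.025) and Rps19 (-0.018), with Rn45s removed for Rplp1 (-0.015) and Rps19 (-0.0089), and with thinned counts for Rpl22l1 (-0.013), Rps4y2 (-0.035), Rplp1 (-0.0046) and Rps19 (-0.016). With each library left out, ranges that cross 0 were -0.69 to 0.36 for Rps19bp1, -0.11 to 0.88 for Rpl5 and -0.090 to 0.95 for Rpl13a in HFD vehicle. In DPI they were -0.15 to 0.29 for Rpl22l1, -0.14 to 0.88 for Rps19bp1, -0.16 to 0.24 for Rps4y2, -0.16 to 0.10 for Rplp1, -0.013 to 0.23 for Rpl11, -0.092 to 0.16 for Rpsa, -0.095 to 0.19 for Rps19, -0.069 to 0.20 for Rpl10, -0.14 to 0.070 for Rps27, -0.019 to 0.24 for Rps27l, -0.23 to 0.14 for Rps29, -0.17 to 0.085 for Rpl41, -0.32 to 0.024 for Rplp2 and -0.0091 to 0.37 for Rplp0. With 2 NC libraries, the diet effect of any single gene rests on few libraries, and rows with few counts, such as Rpl3l, give little precision.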
